A study of Mus musculus with 3 samples.

Results

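Chemokines of the CXC family are small secreted proteins that guide leukocytes through tissue, and their name refers to a spacer residue between the first pair of conserved cysteines. The 7 ligands described here, Cxcl1, Cxcl2, Cxcl9, Cxcl10, Cxcl12, Cxcl13 and Cxcl16, were taken as a list of gene names, with earlier results of these data known. Both liver single-cell tables held all 7, among 23860 genes listed in either table, and the ligands together took 59927 of the 101553830 unique molecular identifiers (UMIs, each 1 captured transcript molecule) of the cells kept. For each ligand the cell class that held it and its level in each library were measured.

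Liver cells were captured with the BD Rhapsody system in 2 libraries. The library called NCD here stands for wild-type (WT) C57BL/6J mice that received normal chow, for 16 weeks according to the methods, but its GEO title reads MCD and its file header carries the library name APAP0h, so that it was matched by elimination. With the limits given below read as strict ones, 23312 NCD cells and 19599 pool cells remained. The former is the count the study states for NCD livers, and the study counts fewer cells of HFHC livers than the pool holds. The other library, called the HFHC pool, mixes WT and Chi3l1-/- mice fed HFHC, a diet high in fat and cholesterol, for the same time, and no genotype could be given to its cells here. The sources used here give no number of mice per library and no age, and the labels call the cells parenchymal whereas the methods describe non-parenchymal cells.

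With 1 library per diet, no test was possible, and no p-value or standard error is given. Diet, genotype, capture and library cannot be told apart. Chil1, the gene disrupted in the knockout, had 2443 kept UMIs with NCD and 232 in the pool, most of them in neutrophils (2278 and 210), which cannot check a genotype in mixed cells. Cells with 200 to 4000 genes and at most 25% mitochondrial UMIs were kept, 23346 cells with 49509045 UMIs in the NCD library and 19625 cells with 52044785 UMIs in the pool. Median depth was 1322.5 and 1622 UMIs per cell, the median mitochondrial share was 5.95% and 1.11%, and Scrublet called 8.13% and 1.95% of the cells doublets. The libraries shared 756 cell indices. Class names stand for "X-like" clusters. In each of the 17 named classes and each library, every marker that named the class was higher than in the other cells. This follows largely from the naming, which used the same markers, and is no separate check of identity. A cluster led by Ly6i, of 161 NCD cells and 299 pool cells, scored 1.81 for monocyte and 1.55 for macrophage markers, but its 10 leading genes hold 1 marker of monocyte-derived macrophages (MoMFs), Gpnmb, and none of monocytes, so it was left without a type name and is called the Ly6i cluster. Neutrophils numbered 3325 with NCD against 364 in the pool, Kupffer cells (KCs, the resident macrophages of the liver) 3262 and 560, and hepatocytes 6497 and 8849.

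Cxcl1 and Cxcl2 carry the ELR motif, bind Cxcr2 and draw neutrophils, and both are classic targets of NF-kB. Cxcl9 and Cxcl10 bind Cxcr3 on activated T cells and NK cells and are induced by interferons, Cxcl9 mainly by interferon gamma. Cxcl12 acts through Cxcr4 and is scavenged by Ackr3, Cxcl13 draws Cxcr5-bearing B cells, and Cxcl16 is a transmembrane ligand of Cxcr6 that can be shed from the surface.

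The promoters of the 4 ligands known to be induced by NF-kB or interferon are shown, so that the motifs behind that knowledge can be seen beside the levels. Sequences of 250 bases before the start site were taken from RefSeq (GRCm38.p6), which held 6 of the 7 members. Cxcl1 lies at chr5:90890995-90891244 and Cxcl2 at chr5:90903649-90903898, both on the + strand, and Cxcl9 at chr5:92328080-92328329 and Cxcl10 at chr5:92348890-92349139, both on the - strand. Each is written 5′ to 3′ along its gene, and capitals mark matches, on either strand, to an NF-kB motif (GGNNTTTCC) or to the core of an interferon-stimulated response element (ISRE, GAAANNGAA).
Cxcl1: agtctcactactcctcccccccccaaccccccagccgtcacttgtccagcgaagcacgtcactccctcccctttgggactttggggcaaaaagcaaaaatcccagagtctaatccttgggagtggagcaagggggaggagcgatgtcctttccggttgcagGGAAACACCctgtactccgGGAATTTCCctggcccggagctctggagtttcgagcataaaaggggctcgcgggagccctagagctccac
Cxcl2: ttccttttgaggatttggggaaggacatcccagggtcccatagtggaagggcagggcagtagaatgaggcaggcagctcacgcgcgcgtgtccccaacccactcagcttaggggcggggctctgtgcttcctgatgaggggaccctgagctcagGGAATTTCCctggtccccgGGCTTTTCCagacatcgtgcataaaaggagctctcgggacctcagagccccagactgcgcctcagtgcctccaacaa
Cxcl9: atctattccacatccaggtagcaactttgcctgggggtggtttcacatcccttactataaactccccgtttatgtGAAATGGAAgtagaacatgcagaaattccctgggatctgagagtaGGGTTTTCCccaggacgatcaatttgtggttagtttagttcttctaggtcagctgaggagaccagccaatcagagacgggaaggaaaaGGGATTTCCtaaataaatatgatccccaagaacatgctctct
Cxcl10: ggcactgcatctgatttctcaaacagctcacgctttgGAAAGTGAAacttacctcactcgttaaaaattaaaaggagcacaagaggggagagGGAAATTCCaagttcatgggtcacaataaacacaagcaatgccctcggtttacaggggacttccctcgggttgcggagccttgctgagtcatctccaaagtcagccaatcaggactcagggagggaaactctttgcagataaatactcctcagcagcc

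The NF-kB motif occurred in 4.84% of 27025 promoters of this length, and it was matched 2 times each in Cxcl1, Cxcl2 and Cxcl9 and 1 time in Cxcl10. Cxcl1 and Cxcl2 both held the run GGAATTTCC, ending 62 and 88 bases before the start. The ISRE core occurred in 7.16% of promoters and was matched 1 time each in Cxcl9, as GAAATGGAA, and in Cxcl10, as GAAAGTGAA. A gamma-activated site (GAS, TTCNNNGAA, 7.18% of promoters) was found in none of the 6, and a TATAAA run (13% of promoters) in Cxcl9 and Cxcl13. Cxcl12 and Cxcl13 held neither the NF-kB nor the ISRE motif. These matches are descriptions of letters and show no binding.

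In the GENCODE vM21 annotation of GRCm38, 5 of the 7 genes lie on chromosome 5. Cxcl1 spans chr5:90891241-90893115 and its neighbour Cxcl2 chr5:90903871-90905938, whereas Cxcl9 (chr5:92321347-92328079) and Cxcl10 (chr5:92346638-92348889) form a second pair and Cxcl13 lies at chr5:95956951-95961068. Cxcl12 is at chr6:117168535-117181367 and Cxcl16 at chr11:70453983-70459984. Cxcl10 overlaps Art3, and Cxcl16 overlaps Zmynd15, on the opposite strand. The strand setting of the counting is not given in the sources used here, so reads of these pairs could not be told apart.

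The ligands fell to different cells. Among the kept cells, Cxcl2 was mostly a neutrophil transcript, Cxcl13 a KC transcript, Cxcl9 and Cxcl10 were shared by the Ly6i cluster, dendritic cells, endothelial cells and KCs, joined in the pool by hepatocytes for Cxcl9 (22.0% of UMIs) and neutrophils for Cxcl10 (10.8%), Cxcl12 came from hepatocytes, endothelial cells and stellate cells, and Cxcl16 from macrophages, mature dendritic cells and endothelial cells. Levels are given as the summed UMIs of a gene in a class, scaled to a counts-per-million (CPM) of all UMIs counted there, with exact Poisson 95% intervals in brackets. All intervals cover counting error only. Cxcl1 was the rarest ligand with NCD, at 3.68 CPM over all kept cells, and had 13.97 CPM with HFHC, where Cxcl13 was the rarest among kept cells. Over all cells of the pool, kept or not, Cxcl1 was the rarest, at 22.6 CPM. Cxcl9 was the most abundant in the NCD library, at 171 CPM, and stood at 185 CPM in the pool. Cxcl2 went from 55.9 to 192 CPM over all kept cells and Cxcl13 from 88.9 to 11.1 CPM, values that also carry the different numbers of neutrophils and KCs.

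**Figure D1:**
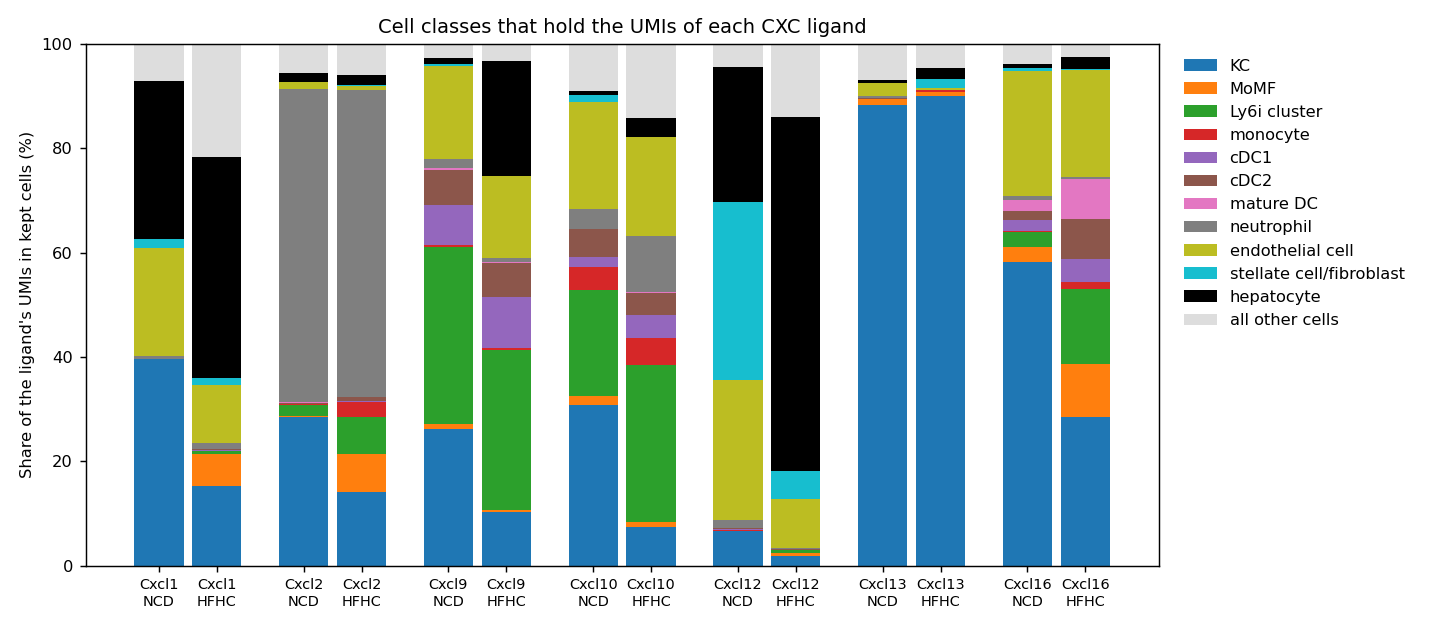
Share of the UMIs of each CXC ligand (percent of the ligand's UMIs in kept cells, stacked bars) held by each cell class, with the NCD library on the left and the HFHC pool on the right of each pair. KCs hold 88.3% and 90.0% of Cxcl13, neutrophils hold 60.0% and 58.9% of Cxcl2, and the hepatocyte share of Cxcl9 goes from 1.15% to 22.0%.

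A share depends both on the number of cells in a class and on their level. Neutrophils made up 3325 of 23346 NCD cells and 364 of 19625 pool cells, yet held 60.0% and 58.9% of the Cxcl2 UMIs. For Cxcl12 the stellate cell share went from 34.1% of UMIs in 40 cells to 5.38% in 12 cells. The leading class of a ligand was defined as the class with the highest CPM among classes of at least 50 cells and 10 UMIs of the ligand. It was the same in both libraries for 6 of the 7 ligands: neutrophils for Cxcl2, the Ly6i cluster for Cxcl9 and Cxcl10, hepatocytes for Cxcl12, KCs for Cxcl13 and MoMFs for Cxcl16. For Cxcl1 hepatocytes led in the NCD library and MoMFs in the pool, at low counts and with other leaders under other settings. Cholangiocytes had higher Cxcl1 levels than these leaders, 22.7 CPM from 8 UMIs with NCD and 60.6 CPM from 12 UMIs in the pool. They did not meet the minimums for a leading class. Stellate cells and fibroblasts led Cxcl1 in both libraries with classes from marker UMIs, and in the pool without integration or with no minimum number of cells. Thinned cells gave endothelial cells with NCD and KCs with HFHC, and allowing CXC ligand genes in clustering gave monocytes with HFHC. Leaders of other ligands changed too. With classes from marker UMIs or no minimum number of cells, stellate cells and fibroblasts led Cxcl12 and mature dendritic cells Cxcl16, in both libraries. Without integration stellate cells and fibroblasts also led Cxcl12. With CXC ligand genes allowed in clustering, where no Ly6i cluster was set apart, cDC2 dendritic cells led Cxcl9 in both libraries.

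**Figure D2:**
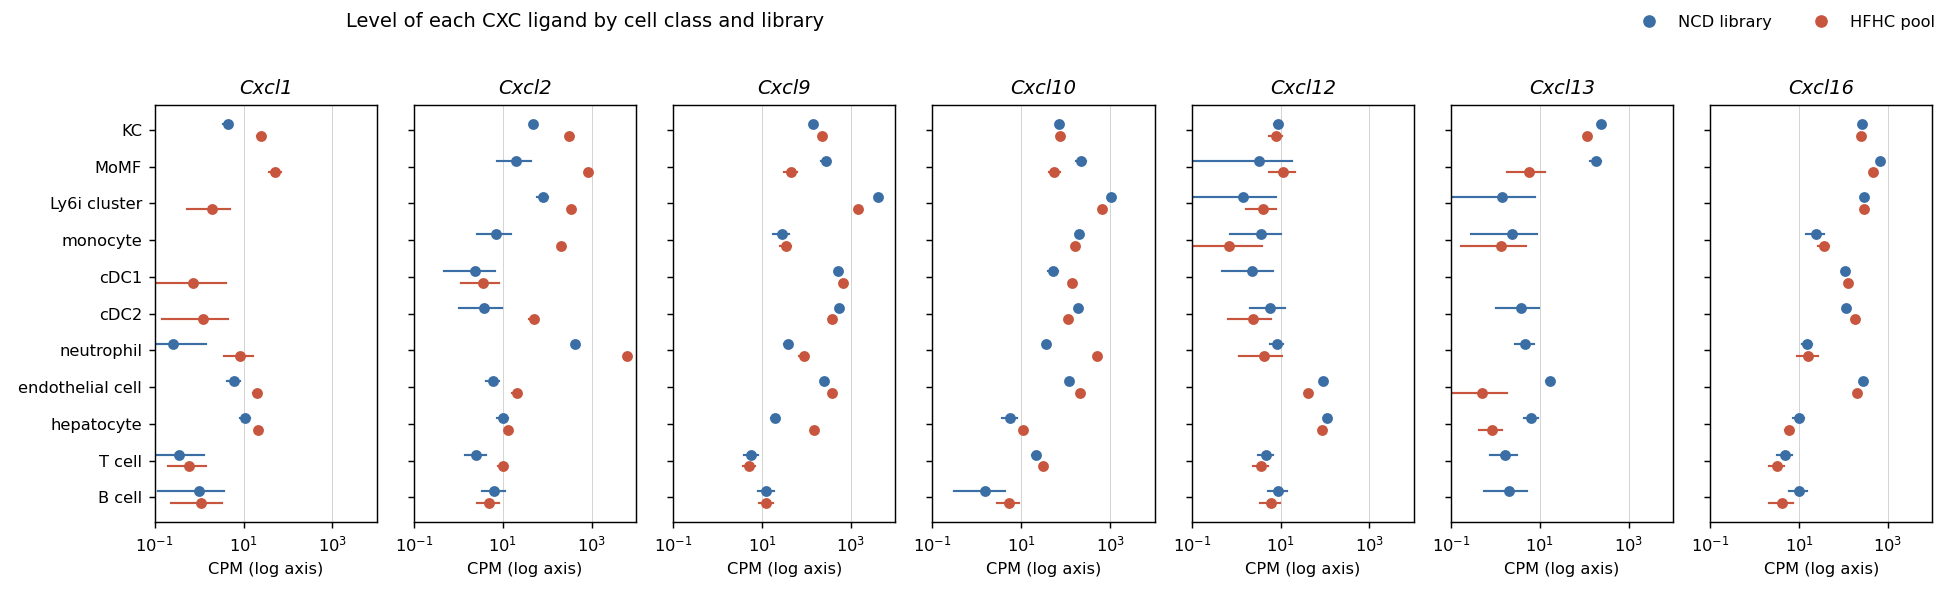
Level of each ligand (CPM, log axis) in 11 cell classes of the NCD library (blue) and the HFHC pool (red). Points are summed levels, bars are exact Poisson 95% intervals that run off the axis below 0.1 CPM, and a class with no UMI has no point. The neutrophil points of Cxcl2 lie at 427 CPM for the NCD library and at 6203 CPM for the pool, the latter the farthest to the right of all.

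Levels were compared between libraries within each class as the log2 ratio of CPM, pool over NCD, with 1 UMI added, for genes that reached 100 UMIs in the class when the libraries were added together. A gene past a 2-fold ratio is said to have risen or fallen, which is a rule of size and not a test. In KCs, where all 7 ligands met the minimum, Cxcl1 and Cxcl2 rose and Cxcl13 fell, against 5.42% of 9486 genes that rose and 3.25% that fell. Without integration the KCs of the pool mostly stood apart, in a cluster led by C1qa of 1 NCD cell and 361 pool cells that got no type name, since its 10 leading genes hold 2 MoMF markers, Gpnmb and Trem2. It holds 311 of the 560 pool KCs and 49 of the 103 pool MoMFs. In the 249 other pool KCs, against the NCD KCs, the log2 ratio was 1.54 for Cxcl2 and -2.19 for Cxcl13, and Cxcl9 passed the rule at 1.46. For Cxcl1 it was 2.04, from 72 NCD and 18 pool UMIs, under the minimum for a call. In neutrophils Cxcl2, Cxcl9 and Cxcl10 met the minimum and all 3 rose, against 8.32% of genes that rose and 4.93% that fell. In the Ly6i cluster Cxcl2 rose and Cxcl9 fell among 4 ligands, against 4.44% and 2.8%. In monocytes Cxcl2 rose and Cxcl10 stayed inside 2-fold, against 4.06% and 2.48%, and the other ligands were under the minimum.

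In MoMFs Cxcl2 rose and Cxcl9 and Cxcl10 fell among 4 ligands, against 6.07% of genes that rose and 4.47% that fell. In endothelial cells, with all 7 ligands over the minimum, Cxcl1 and Cxcl2 rose and Cxcl12 and Cxcl13 fell, against 9.6% and 4.87%. In hepatocytes Cxcl9 rose among 6 ligands, against 5.56% of genes that rose and 7.87% that fell. Cxcl10 rose in cDC1 (cross-presenting dendritic cells) among 3 ligands, against 4.14% and 2.25%, whereas none of 3 ligands passed the rule in cDC2, against 3.62% and 2.63%. The median ratio of all genes lay between -0.03 and 0.12 (log2) in these 9 classes. Without integration, not only KCs lay apart by library. Endothelial cells then fell into clusters of 2345 NCD and 79 pool cells, of 149 and 609, and of 187 and 26. The largest hepatocyte cluster held 21 NCD and 3952 pool cells, although another held 1639 and 1270.

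**Figure D3:**
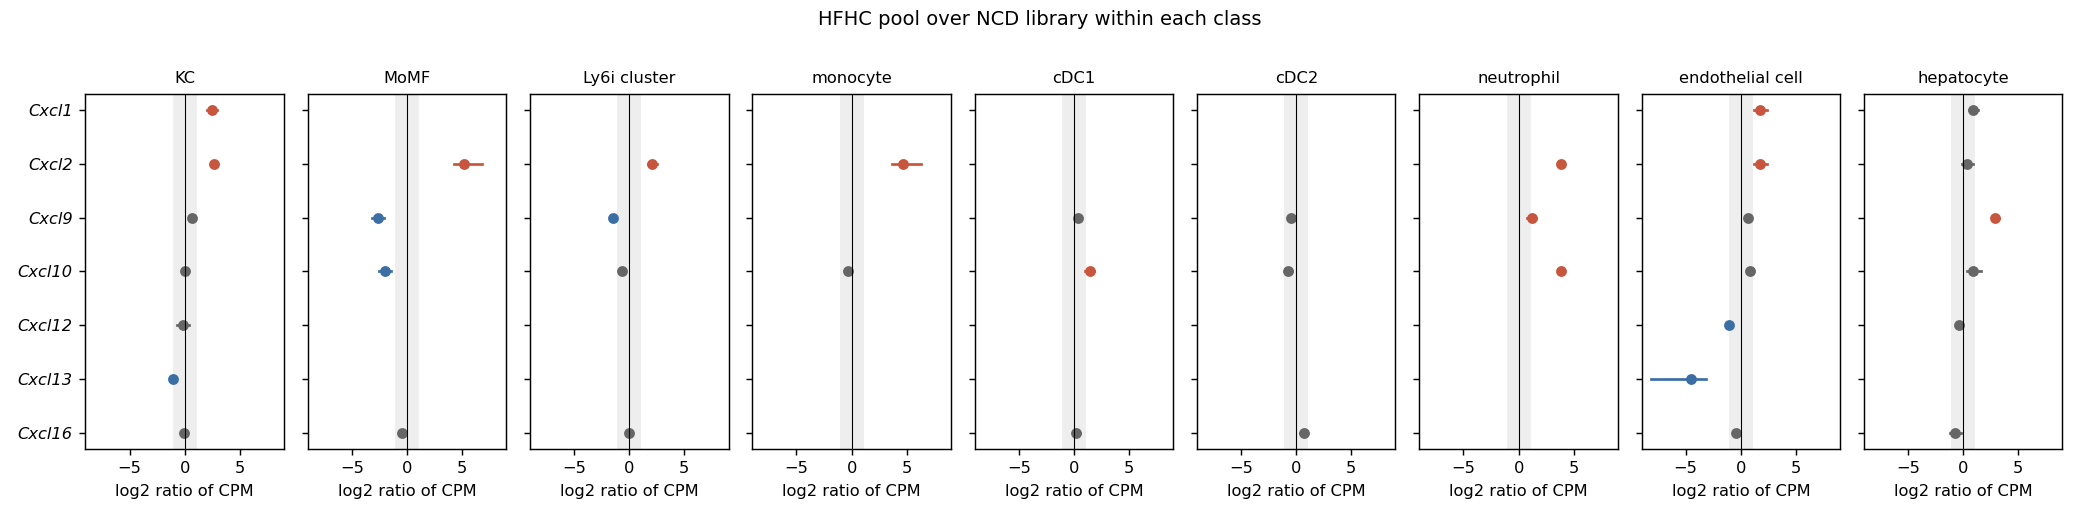
Log2 ratio of CPM, HFHC pool over NCD library, of each ligand in 9 cell classes, with the 95% interval of the ratio of 2 Poisson counts. The grey band spans a 2-fold change either way, red points lie above it and blue points below it, and a ligand without a point was under 100 UMIs in that class. Cxcl2 lies to the right of the band in 6 classes.

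Cxcl2 was the neutrophil-attracting ligand with the highest level. Its level in neutrophils was 427 CPM [407 to 448] in the NCD library and 6203 CPM [6045 to 6363] in the pool, a 14.5-fold rise (log2 3.86 [3.78 to 3.94]). The pool value was the highest of any ligand in any named class. For shares of cells, each cell of at least 2000 UMIs was thinned to that depth and shallower cells were dropped. Thinned shares thus cover only the deeper cells of a class, here 220 of 3325 NCD and 229 of 364 pool neutrophils. Of these, 17.3% and 74.2% had a Cxcl2 UMI, against 18.0% and 72.5% of all neutrophils before thinning. In B cells, which should lack the transcript, the thinned shares were 1.76% of 170 and 0.987% of 709 cells, where median depth before thinning was 1316 and 2584 UMIs against 1032 and 2158.5 UMIs in neutrophils. Both neutrophil shares thus lay above the B cell shares.

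The rise was seen in both large clusters of neutrophils made with integration. Without integration neutrophils mostly split by library, into clusters of 3119 NCD and 52 pool cells and of 32 NCD and 296 pool cells. The ligand genes were left out of the genes used for clustering, although Cxcl2 itself was among the leading genes of 1 neutrophil cluster and Cxcl9 and Cxcl10 were among those of the Ly6i cluster, so that their high levels there are a description. In the cluster led by Cxcl2, Ptgs2 and Il1r2, the level was 587 CPM in 1305 cells of the NCD library and 8742 CPM in 195 cells of the pool. In the cluster led by Retnlg, S100a9 and S100a8, the last pair being the subunits of calprotectin, it was 346 CPM in 1939 cells and 3610 CPM in 161 cells. The Ptgs2 cluster was the higher of the pair in both libraries. The most loaded cell of the pool held 3.09% of the neutrophil Cxcl2 UMIs, so that no single cell carried the value.

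Mononuclear phagocytes also held Cxcl2. KCs had 48.8 CPM [45.5 to 52.4] in the NCD library and 316 CPM [299.6 to 333] in the pool, a 6.46-fold rise whose log2 ratio ran from 1.49 without integration to 3.24 with no upper limit on genes, and the Ly6i cluster had 79.3 CPM [60.1 to 103] and 344 CPM [319 to 371], a 4.27-fold rise with log2 ratios from 1.58 to 3.25 over 8 alternatives. The pool intervals of this pair overlap. Monocytes, led by F13a1 or by Ace, had 7.14 CPM [2.62 to 15.5] from 6 UMIs and 204 CPM [182 to 229] from 300 UMIs, of which 1 cell held 28%. Their rise rests on those 6 UMIs, and its log2 ratio of 4.62 becomes 2.80 when the Ly6i cluster is counted as monocytes. MoMFs had 19.9 CPM [7.29 to 43.2] from 6 UMIs in 87 cells of the NCD library and 829 CPM [770.3 to 892] from 732 UMIs in 103 cells of the pool. MoMFs passed the rule, with a ratio that rests on those 6 UMIs. Of the 732 UMIs, 650 lay in the 49 pool MoMFs of the C1qa cluster found without integration, at 1357 CPM. No NCD MoMF lay in that cluster. The share of MoMFs with a Cxcl2 UMI after thinning was 1.67% in the NCD library, no higher than in B cells, and 29.1% in the pool.

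Cxcr2, a neutrophil marker here, was counted in other classes too, and at higher levels in the NCD library. It stood at 33.6 CPM in KCs of the NCD library and 5.33 CPM in those of the pool, at 31.6 and 1.99 CPM in endothelial cells, and at 39.1 and 3.28 CPM in hepatocytes. Within neutrophils, UMIs of Cxcr2 numbered 16516 and 2419 and those of Cxcl2 1661 and 5896, so that Cxcr2 does not stand for the Cxcl2 that neutrophil RNA could bring. The part of neutrophil RNA in the Cxcl2 of other classes was not tested. In endothelial cells Cxcl2 rose from 5.87 CPM [4.13 to 8.09] to 20.4 CPM [16.2 to 25.3]. A small endothelial cluster led by Lyve1 held 24 of the 82 UMIs of the pool in 16 cells. Hepatocytes had 9.93 and 12.9 CPM, within overlapping intervals.

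Cxcl1, the other ELR ligand, was measured at low counts. Hepatocytes had 10.9 CPM [8.23 to 14.2] from 55 UMIs in the NCD library and 20.97 CPM [18.7 to 23.5] from 307 UMIs in the pool, a ratio of 0.92 (log2 [0.52 to 1.38]) that stayed inside 2-fold but lay just past it, at up to 1.05, with classes from marker UMIs or without integration. Endothelial cells went from 6.03 CPM [4.27 to 8.28] to 20.1 CPM [15.97 to 24.99], and KCs from 4.46 CPM [3.49 to 5.62] to 24.7 CPM [20.3 to 29.7], which are rises of 3.29-fold and 5.50-fold. The endothelial log2 ratio ran from 0.9989, just under the rule, with CXC ligand genes allowed in clustering to 2.44 in thinned cells. In MoMFs no Cxcl1 UMI was found in the NCD library, where 3 UMIs would make 9.93 CPM. In the pool 45 UMIs gave 51.0 CPM [37.2 to 68.2], 5.13 times that value and under the minimum for a call. Of those 45 UMIs 1 cell held 28.9%, and 44 lay in the 49 pool MoMFs of the C1qa cluster found without integration. In an unnamed cluster of 3 cells of the pool, led by Prg4, 1 cell held 99 UMIs of Cxcl1, which was 13.6% of those in all kept cells. In the pool the intervals of KCs, hepatocytes and endothelial cells overlap, so that their order is not resolved.

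Both ELR ligands were often found in the same KCs. Among KCs thinned to 2000 UMIs, Cxcl2 was found in 7 of the 13 NCD cells with Cxcl1 and in 4.58% of the others. In the pool it was found in 9 of the 17 KCs with Cxcl1 and in 14% of the others. In endothelial cells of the NCD library none of the 11 cells with Cxcl1 had Cxcl2, against 1.04% of the others, and in the pool 2 of 21 such cells did, against 2.39%. These counts are descriptions, as cells of 1 library are not replicates.

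Cxcl9, which draws Cxcr3-bearing lymphocytes, was highest in the Ly6i cluster and fell there. Its level was 4001 CPM [3856 to 4150.0] with NCD, from 2876 UMIs, and 1455 CPM [1403 to 1508] with HFHC, from 2945 UMIs, a log2 ratio of -1.46 [-1.53 to -1.39]. The cluster held 33.9% of all Cxcl9 UMIs with NCD and 30.5% with HFHC, and its share of cells with a UMI at 2000 UMIs was 54.5% and 31.0%. Monocytes had 23 NCD UMIs and 50 pool UMIs, or 27.4 CPM [17.4 to 41.1] and 34.0 CPM [25.3 to 44.9], under the minimum for a call. When the Ly6i cluster is counted as monocytes the log2 ratio in that class is -1.12.

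**Figure D4:**
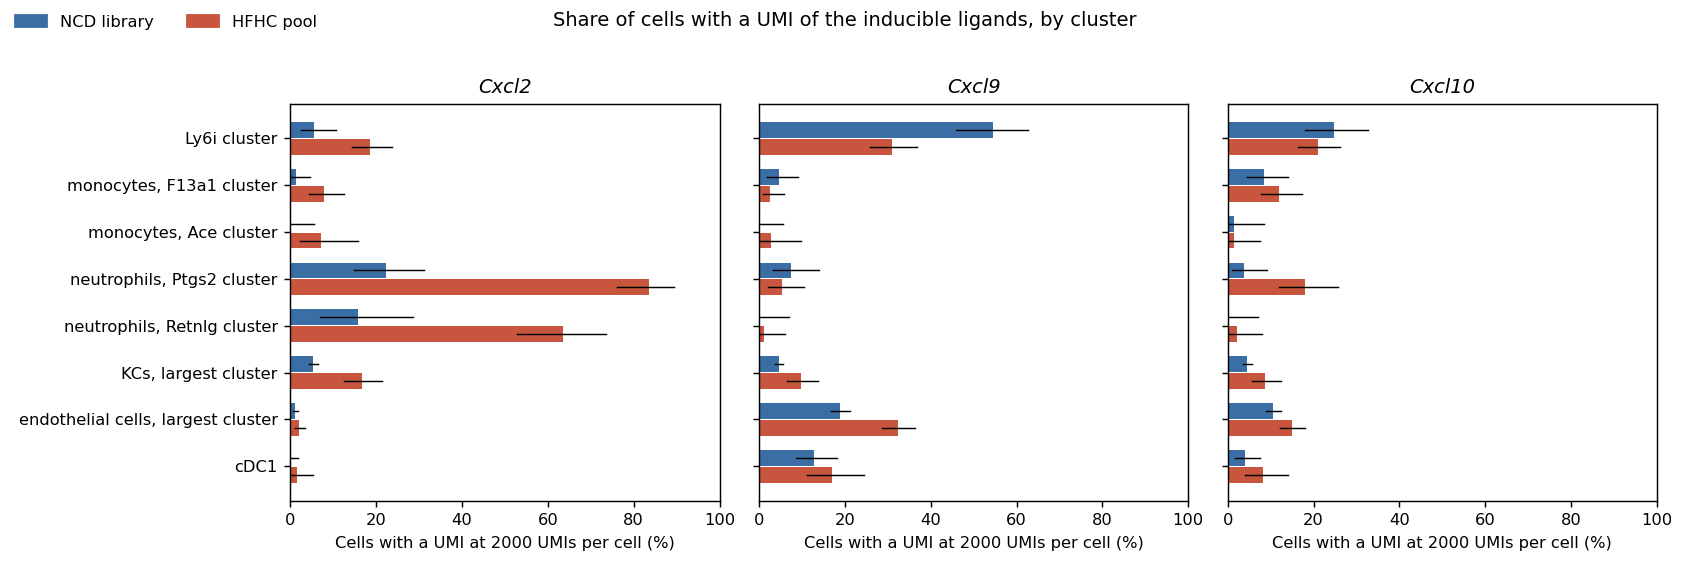
Share of cells with a UMI of Cxcl2, Cxcl9 or Cxcl10 in 8 clusters of the NCD library (blue bars) and the HFHC pool (red bars), with exact binomial 95% intervals. Shares are percent of the cells with at least 2000 UMIs, each thinned to 2000, and shallower cells are left out. For Cxcl2 the Ptgs2 cluster of neutrophils reaches 83.5% in the pool against 22.2%, and for Cxcl9 the Ly6i cluster has 54.5% in the NCD library against 31.0%.

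The dendritic cells cDC1 and cDC2 came next in the order, although cDC2 and endothelial cells had overlapping intervals in the pool. In the NCD library cDC2 had 541 CPM [497 to 587] and cDC1 511 CPM [473 to 551] of Cxcl9, whose intervals overlap, and in the pool cDC1 had 662 CPM [620.5 to 706] and cDC2 385 CPM [355 to 416]. None of these ratios passed the rule. Endothelial cells had 242 CPM [230.0 to 254] and 375 CPM [356 to 394], a ratio of 0.63 (log2). The share of endothelial cells with a Cxcl9 UMI after thinning was 18.6% [16.6 to 20.8] and 32.5% [28.7 to 36.3], against 1.18% and 1.27% in B cells. Nearly all of it lay in the cluster led by Ptprb, Aqp1 and Clec4g, which held 97.4% and 98.5% of the endothelial UMIs.

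Hepatocytes carried the largest relative rise of Cxcl9. Their level was 19.5 CPM [15.8 to 23.7] from 98 UMIs in the NCD library and 145 CPM [139 to 151] from 2125 UMIs in the pool, a 7.39-fold rise (log2 2.88 [2.61 to 3.21]) that ran from 1.98 with CXC ligand genes allowed in clustering to 3.63 in thinned cells, the latter from 7 NCD UMIs. The thinned share of hepatocytes with a UMI was 1.58% of 316 cells, near the B cell share, and 9.64% of 2178 cells. The rise was uneven over clusters. In the 6 hepatocyte clusters with 100 UMIs or more, the log2 ratio ran from 1.07 in the cluster led by Glul to 4.27 in the cluster led by Mup20, and in the other cluster, of 6 NCD cells without a UMI, the pool had 243 CPM. When CXC ligand genes were allowed in clustering, a cluster of 10 NCD and 97 pool cells led by Ubd, Saa2, Saa1 and Cxcl9 itself stood apart. Only some of these cells lie in the hepatocyte class described here, and most of the 96 NCD UMIs of the cluster lie outside it. Those inside held 8.16% of the hepatocyte UMIs of Cxcl9 with NCD and 21.04% with HFHC, and without them the ratio was 2.67. The most loaded cell of the pool held 3.25% of the UMIs. In hepatocytes of the pool with 0 or 1 UMI of endothelial markers the level was 141 CPM, and in those with 2 or more it was 211 CPM. With KC markers in place of endothelial ones these levels were 142 and 176 CPM. The summed level of 6 sinusoidal genes in hepatocytes was 219 CPM with NCD and 104 CPM with HFHC. The part of RNA from other cells in the hepatocyte values was not tested.

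KCs and neutrophils had less Cxcl9 than endothelial cells in both libraries, but KCs had more than hepatocytes in both. KCs had 138 CPM [132 to 144] and 222 CPM [208 to 236], and neutrophils 37.5 CPM [31.7 to 44.1] and 86.3 CPM [68.6 to 107], a 2.31-fold rise in which the thinned share of cells was 4.55% and 3.49%. No order is read from these shares, and 1 NCD neutrophil held 47.3% of the UMIs. MoMFs went from 272 CPM [216 to 337] from 82 UMIs to 44.2 CPM [31.4 to 60.4] from 39 UMIs, a fall of 2.60 (log2), while the thinned shares were 5% and 4.85% of cells. Over 13 alternatives this log2 ratio ran from -4.12 to 0.014. A single cell held 48.8% of the MoMF UMIs with NCD and 56.4% with HFHC.

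Cxcl10, the second Cxcr3 ligand here, was also led by the Ly6i cluster. It had 1023 CPM [949.9 to 1099] in the NCD library and 659.9 CPM [625 to 696] in the pool, a ratio of -0.63 (log2 [-0.76 to -0.50]) that stayed inside 2-fold. In the pool neutrophils led instead under 5 settings: thinned cells, the Ly6i cluster counted as monocytes, no filter on cells, CXC ligand genes allowed in clustering, and no integration. Monocytes had 196 CPM [168 to 229] and 159 CPM [139 to 180], a ratio of -0.31 (log2) that became 0.28 without the most loaded cells and 2.16, from 15 and 114 UMIs, with CXC ligand genes allowed in clustering. Their F13a1 cluster held 258 and 199 CPM of Cxcl10 and 38.8 and 23.4 CPM of Cxcl9, so that it had more Cxcl10 than Cxcl9 UMIs, 153 against 23 and 230 against 27.

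In neutrophils Cxcl10 rose from 35.7 CPM [30.04 to 42.2] to 507 CPM [463 to 554], a 14.1-fold rise (log2 3.82 [3.55 to 4.11]) that ran from 3.04 with no filter on cells to 4.48 without integration. The Ptgs2 cluster held 85.6% and 99.2% of it, at 78.3 and 921 CPM. The share of neutrophils with a UMI after thinning was 2.27% [0.742 to 5.22] and 11.4% [7.55 to 16.2], against 0% of 170 and 0.423% of 709 B cells. The exact upper limit for 0 of 170 cells is 2.15%. Few cells carried the transcript, and 1 cell of the pool held 16.6% of the UMIs. Endothelial cells had 118 CPM [110.0 to 127] and 209 CPM [195 to 224], below 2-fold, whereas cDC1 rose from 51.8 CPM [40.1 to 65.8] to 141 CPM [122 to 162]. In cDC1 of the pool 1 cell held 28.8% of the UMIs, and with classes set from marker UMIs the log2 ratio turned to -0.22.

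Cxcl10 in MoMFs rested on 1 cell. Its level there was 219 CPM [169 to 278] in the NCD library and 55.5 CPM [41.1 to 73.4] in the pool, a ratio of -1.97 (log2), but 1 cell held 58 of the 66 UMIs of the NCD library, and without the most loaded cell of each library the ratio was 0.34. KCs had 69.6 CPM [65.6 to 73.8] and 72.9 CPM [65.2 to 81.2], so that a difference was not detectable. NK cells and ILC1 had 131 CPM [110.4 to 154] and 37.5 CPM [29.8 to 46.7], a log2 ratio of -1.80, where 132 of 5232 genes fell. These UMIs lay in 10 of 589 NCD cells and 17 of 551 pool cells, and 1 cell held 39.2% and 34.6% of them.

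Cxcl9 and Cxcl10 were found together more often in some classes than in others. In the Ly6i cluster thinned to 2000 UMIs, Cxcl10 was found in 41.8% of the NCD cells with Cxcl9 and in 4.55% of those without it. In the pool these shares were 42.2% and 11.5%. In endothelial cells they were 16.6% and 8.95% in the NCD library and 25.9% and 9.51% in the pool. In KCs they were 22.9% and 3.72% with NCD, but 10.9%, from 5 cells with both, and 6.90% with HFHC. Over 30 pairs of class and library, all classes sharing their library and depth, the levels of Cxcl9 and Cxcl10 had a Pearson r of 0.71 on a log2 scale, the highest of the 21 pairs of members, with Cxcl9 and Cxcl16 close behind.

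Cxcl12, the constitutive ligand of Cxcr4, was highest per cell in stellate cells and fibroblasts, known as its main stromal source. These cells had 3268 CPM [3034 to 3515] in 40 cells of the NCD library and 1366 CPM [1108 to 1666] in 12 cells of the pool. Thinned, 91.2% of 34 and 40% of 10 of them had a UMI. With so few cells, 1 of which held 37.1% of the pool's UMIs, they were not ranked. Hepatocytes had 109 CPM [100.3 to 119] and 83.6 CPM [79.0 to 88.4], a ratio of -0.39 (log2 [-0.53 to -0.24]). Their thinned share with a UMI was 18.0% and 14.3%, against 2.35% and 0.423% in B cells.

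Among hepatocytes of the pool the cluster led by Glul and Cyp1a2, genes of the pericentral zone, had the highest Cxcl12, at 138 CPM [115 to 163] in 764 cells, within an interval that overlaps the 114 CPM [97.3 to 132] of the Mup20 cluster. The clusters led by Hal and Sds and by Cps1, genes of the periportal zone, had 66.8 and 65.5 CPM. The Mup20 cluster, however, also has a periportal gene, Cyp2f2, among its 10 leading genes, so no order by zone is read. In the NCD library the Glul cluster had 15 UMIs, at 69.9 CPM, and the Hal cluster 101 CPM, so that the Glul cluster was not the higher of this pair there. Endothelial cells fell from 90.0 CPM [82.7 to 97.7] to 41.5 CPM [35.4 to 48.2], a log2 ratio of -1.11 [-1.38 to -0.87] whose interval straddles the rule. The call was lost with a mitochondrial limit of 10%, at -0.62, with classes from marker UMIs, from -0.96 to -0.86, and in thinned cells, at -0.95. Endothelial cells with at least 2 UMIs of large vessel genes had 97.2 and 39.4 CPM, and the others 76.1 and 53.4 CPM, so that both were lower in the pool. This split also sorts cells by depth and so cannot set vessel types apart. Median depth was 2650.5 against 1392 UMIs with NCD and 6174 against 3339 UMIs in the pool.

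Cxcl13, which forms B cell follicles, was mainly found in KCs among the kept cells of both libraries. KCs held 88.3% of its UMIs in the NCD library, at 241 CPM [233 to 248], and 90.0% in the pool, at 116 CPM [106 to 126]. The ratio was -1.05 (log2 [-1.19 to -0.92]), just past the rule, which its interval straddles. The call was lost with classes from marker UMIs, at -0.52, and with CXC ligand genes allowed in clustering, at -0.89. The thinned share of KCs with a UMI was 16.98% [15.6 to 18.5] and 7.74% [5.45 to 10.6], against 1.18% and 0% in B cells. In the pool 1 KC held 27.3% of the KC UMIs, and without the most loaded cell of each library the ratio was -1.45. With classes set from marker UMIs and the upper limit on genes or all filters on cells dropped, or with no minimum number of cells for a leading class, stellate cells and fibroblasts led Cxcl13 in the pool in place of KCs, and without integration the C1qa cluster did.

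The largest KC cluster, led by Cd5l, Clec4f and Vsig4, had 259 CPM of Cxcl13 in 1923 cells of the NCD library and 147 CPM in 318 cells of the pool. In the cluster led by Cd163 the level was 206 CPM from 287 UMIs in 339 cells and 11.5 CPM from 8 UMIs in 134 cells. Both clusters were lower in the pool. The highest level was found in an unnamed cluster led by Prg4, the lipoxygenase gene Alox15 and the acute-phase gene Saa3, with 2711 CPM in 10 cells of the NCD library and 653 CPM in 3 cells of the pool. MoMFs of the NCD library had 179 CPM, of which 1 cell held 88.9%. Endothelial cells had 16.7 CPM from 105 UMIs and 0.496 CPM from 2 UMIs, and with the called doublets removed 19 UMIs were left of the 105.

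Cxcl16, the membrane-bound ligand of Cxcr6, was spread over myeloid and endothelial cells. MoMFs led with 649 CPM [561 to 746] in the NCD library and 464 CPM [421 to 512] in the pool, a ratio of -0.49 (log2 [-0.73 to -0.23]). The 33 and 34 mature dendritic cells, marked by Ccr7 and Fscn1, had 1112 CPM [944 to 1302] and 1522 CPM [1358 to 1702], and after thinning a UMI was found in 90.3% and 91.2% of them. They were too few to be ranked. KCs had 257 CPM [249 to 265] and 251 CPM [237 to 266], a ratio of -0.03 (log2 [-0.13 to 0.06]), and thinned shares of 37.9% and 35.2%.

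Endothelial cells had 271 CPM [258 to 284] of Cxcl16 in the NCD library, with an interval that overlaps that of KCs, and 202 CPM [188 to 216] in the pool. The Ly6i cluster had 294 CPM [255 to 336] and 281 CPM [258 to 305], and monocytes 23.8 and 36.1 CPM. B cells had 9.89 and 4.11 CPM and a thinned share of 3.53% and 0.564%. Of the 9 classes compared above, Cxcl16 met the minimum in 7 and passed the rule in none, whereas each of the other ligands passed it in at least 1. Outside them, plasma cells had 60.1 CPM of Cxcl16 with NCD (84 UMIs) and 9.61 CPM in the pool (16 UMIs). The log2 ratio was -2.57, in a class where 411 of 4643 genes fell and 285 rose, Cxcl10 among the latter. The plasma cell markers of this class summed to 2536 CPM with NCD and 15396 CPM in the pool. At the finer resolution used as an alternative, the plasma cell cluster held 24 NCD and 122 pool cells, against 205 and 165 here. The part of this difference in cell mix in the Cxcl16 ratio was not tested.

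Cells with more than 4000 genes, which the filter left out, mattered for 4 ligands. The pool had 814 of them with 26.3% of its UMIs, and the NCD library 68 with 2.47%. In the pool they held 79.3% of all Cxcl13 UMIs (2277 of 2873), 55.0% of Cxcl1, 49.1% of Cxcl16 and 43.1% of Cxcl2, and by their marker UMIs 501 of them were KCs. Those 501 held 1147 of the 2277 Cxcl13 UMIs, at 95.1 CPM. Another 1082 lay in 19 cells with stellate cell or fibroblast markers, at 2517 CPM, and 1 of these cells held 763. Over all cells in the files, filtered or not, Cxcl13 went from 86.5 to 39.9 CPM and Cxcl2 from 54.6 to 256 CPM, so that the directions were those of the kept cells. With no filter on cells and classes from marker UMIs, KCs held 6404 and neutrophils 5349 of the 18441 Cxcl2 UMIs of the pool, while neutrophils still had the highest level.

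Within those 814 cells, 29 with 10 or more Cxcl13 UMIs held 62.9% of the Cxcl13 UMIs of the pool. Chosen by Cxcl13 itself, they are described only, and they include the cell with 763 UMIs and stellate cell or fibroblast markers. Summed, they also had 231 CPM of Lyz1 against 4.34 CPM in the other 785 cells, 117 against 1.21 CPM of Cd209f, 182 against 15 CPM of Prg4 and 1677 against 535 CPM of Marco, a macrophage scavenger receptor. Of the other ligands, Cxcl10 had 615 against 76.7 CPM in them and Cxcl9 409.8 against 113 CPM.

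The receptors were highest in leukocytes. Cxcr2 was highest in neutrophils, at 4246 CPM in the NCD library and 2545 CPM in the pool. Cxcr3 was highest in T cells, at 219.8 and 214 CPM, followed by NK cells and ILC1 in both libraries. Cxcr6 was highest in T cells too, at 896 and 597 CPM. Cxcr5 was highest in B cells, at 370.0 and 282 CPM, and Cxcr4 in neutrophils, at 1628 and 1875 CPM, followed in the pool by B cells. In neutrophils none of 5 receptor genes over the minimum passed the rule, against 8.32% of all genes that rose and 4.93% that fell.

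The decoy receptors were endothelial. Ackr3, which clears Cxcl12, had 19.0 and 19.9 CPM in endothelial cells, and Ackr1, which binds several inflammatory ligands, 67.4 and 46.2 CPM. Cxcr3 rose in endothelial cells from 5.87 to 15.9 CPM and Cxcr6 from 17.9 to 40.5 CPM, while Cxcr2 fell from 31.6 to 1.99 CPM. In endothelial cells 6 receptors met the minimum, and 9.6% of all genes rose and 4.87% fell. In hepatocytes Cxcr2, Cxcr4 and Cxcr6 all fell, against 7.87% of all genes, and in KCs Cxcr2 did, against 3.25%. These receptors are best known from leukocytes, and the part of RNA from other cells in these values was not tested.

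Of the proteins that cut the ligands, Adam17 fell in endothelial cells from 123 to 59.6 CPM and in hepatocytes from 17.9 to 7.58 CPM. Of all genes, 4.87% and 7.87% fell in these classes. Adam10, the main constitutive sheddase of Cxcl16, had 239 and 263 CPM in KCs and 135 and 158 CPM in endothelial cells. Dpp4, which trims Cxcl10 and Cxcl12, was an endothelial transcript here, with 819.7 and 719 CPM. Neither Adam10 nor Dpp4 passed the rule in KCs or endothelial cells.

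Of 8 other CXC ligands looked up, 6 had a column in at least 1 table, and they held 2519 UMIs in all against 59927 for the 7 members. Pf4, platelet factor 4, was a macrophage transcript here and fell in KCs from 63.8 to 21.1 CPM and in MoMFs from 202 to 88.4 CPM. Of all genes, 3.25% and 4.47% fell in these classes. Cxcl14 had 24.8 and 23.6 CPM in KCs. Cxcl3, another Cxcr2 ligand, was found in neutrophils with 9 UMIs under NCD and 28 in the pool, or 2.31 and 29.5 CPM, under the minimum for a call.

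Response genes moved with the ligands in some classes and without them in others. A list of 14 NF-kB early response genes had 11 of 13 genes over the minimum that rose in neutrophils, 7 of 14 in KCs, 8 of 13 in the Ly6i cluster, 6 of 11 in monocytes and 5 of 9 in MoMFs, and none fell in these classes. Of all genes, 8.32%, 5.42%, 4.44%, 4.06% and 6.07% rose in these classes, in the same order. In neutrophils Tnf went from 25.2 to 497 CPM, Il1b from 2851 to 12710.3 CPM and Nfkbiz from 124 to 752 CPM. In endothelial cells 5 of 12 rose and Relb fell, against 9.6% of all genes that rose and 4.87% that fell. In hepatocytes, where Cxcl2 did not pass the rule, Tnfaip3 rose and Il1b fell among 10 genes, against 5.56% and 7.87% of all genes. In cDC2, where no ligand passed the rule, 6 of 12 rose and none fell, against 3.62% of all genes that rose. In cDC1 2 of 6 rose and none fell, against 4.14%.

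Immediate-early and heat shock genes, which are also induced when tissue is digested into cells, rose more widely. Of 12 genes, 10 rose in the Ly6i cluster, 9 in KCs, monocytes, endothelial cells and cDC1, 8 in cDC2, 7 in neutrophils and hepatocytes, and 9 of 11 in MoMFs, and none fell. Of all genes, from 3.62% in cDC2 to 9.6% in endothelial cells rose in these classes. The summed level of the list went from 3248 to 8060.1 CPM in KCs and from 5562 to 11678 CPM in neutrophils. Egr1 had a log2 ratio of 3.21 in KCs and 3.76 in neutrophils, and Hspa1a 2.25 and 3.02. The part of this difference between the libraries in the levels of Cxcl1 and Cxcl2 was not tested.

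**Figure D5:**
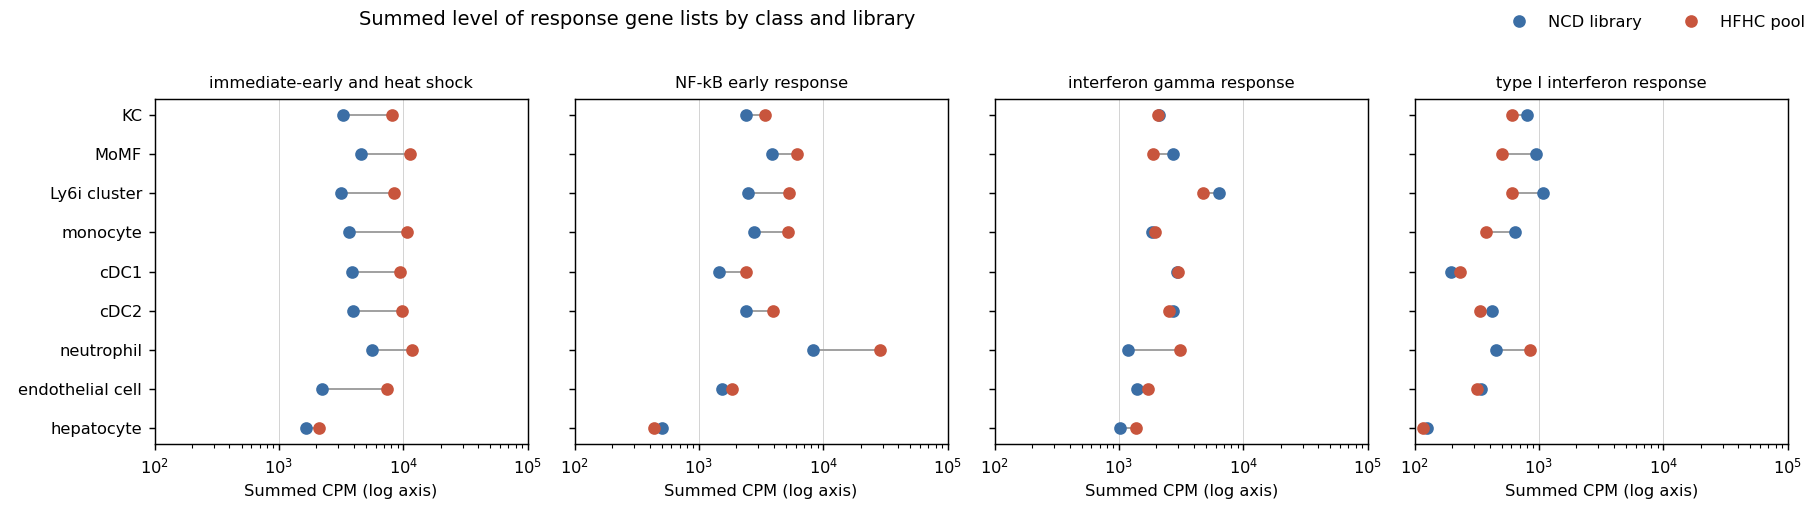
Summed level (CPM, log axis) of 4 lists of response genes in 9 cell classes of the NCD library (blue) and the HFHC pool (red), joined by a line. The NF-kB early response list goes from 8208 to 28691 CPM in neutrophils, and the immediate-early and heat shock list is higher in the pool in all 9 classes.

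Interferon gamma response genes rose mainly in neutrophils, where 8 of 12 genes rose, against 8.32% of all genes. The list's median ratio there was 1.18 (log2) against 0.05 for all genes. Gbp2, a guanylate-binding protein, went there from 63.5 to 609 CPM. In hepatocytes Irf1, Gbp2 and Gbp3 rose and Tap1 fell among 14 genes, against 5.56% of all genes that rose and 7.87% that fell. In KCs 1 of 15 rose, against 5.42%. In the Ly6i cluster Iigp1, Socs1, Gbp7 and Igtp fell among 16 and none rose, against 2.8% of all genes that fell. In monocytes Gbp2 rose among 13 and none fell, against 4.06% that rose. In endothelial cells none of 15 passed the rule, against 9.6% that rose and 4.87% that fell. In MoMFs Gbp7 and Tap1 fell among 9, against 4.47% of all genes.

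Ifng itself, made by NK and T cells, had 47.7 CPM in NK cells and ILC1 of the NCD library and 216 CPM in those of the pool, and 20.2 and 121 CPM in T cells. Its receptor chains Ifngr1 and Ifngr2 passed the rule in none of the 9 classes compared. Of 10 type I interferon response genes, Ifit1, Ifit3, Isg15 and Oasl1 rose among 6 in neutrophils, against 8.32% of all genes. In the Ly6i cluster Ifit1, Ifit3, Isg15 and Rsad2 fell and Oas1a rose among 8, against 2.8% of all genes that fell and 4.44% that rose. In monocytes Ifit1, Ifit3 and Rsad2 fell among 6, against 2.48%.

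The genes most like each ligand were sought by Pearson's r of log2(CPM + 10) over the 30 pairs of class and library with at least 50 cells, among 11889 genes. These points share library, depth and cell types, and r is a description. Ccrl2, Pstpip2 and Il1rn, genes of activated myeloid cells, were most like Cxcl2, with r from 0.88 to 0.91. Cxcl12 was most like Nectin3, Tspan12 and Mylk, with r from 0.94 to 0.95, and Cxcl13 like Chp2, Adrb1 and Folr2, the last a folate receptor of resident macrophages, with r from 0.90 to 0.92.

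Cxcl16 was most like Phf11d, Cttnbp2nl and Id3, with r from 0.90 to 0.94. Weaker likeness was found for the remaining ligands. Cxcl9 was most like Batf2, at 0.78, Slamf8 and Pgap2, and Cxcl10 most like Tbkbp1, at 0.80, and the interferon-inducible Gbp2 and Gbp5, at 0.77. Cxcl1 had no r above 0.78, with Agmo, Sqstm1 and Hspb1 in front.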

How the data were processed

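The authors deposited UMI counts per gene and cell, made with the BD Rhapsody WTA Analysis Pipeline 1.10.1 on GRCm38 with GENCODE vM19. These versions come from the headers of the counts and the submitters' processing notes. The deposited counts are whole numbers, not normalized and without the limits on cells used here. The aligner's settings are not given in the sources used here. The other sample, for sample tags, was not analysed here. The members and gene lists were chosen with earlier results of these data known.

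Cells with 200 to 4000 genes and at most 25% mitochondrial UMIs were kept. Normalization was done within libraries by SCTransform (sctransform 0.4.2, 4000 variable genes without CXC ligand genes) and integration used reciprocal PCA in Seurat 5.3.0 (R 4.3.3) with 30 components, by integrating embeddings in place of expression values for want of memory. Clusters were made at a resolution of 0.8 with 20 neighbours and a seed of 42, and those of monocytes and macrophages were clustered again at 0.5. Clusters were named from marker lists, with a mean log2 score of at least 1 and at least 3 markers found in 10% of cells, and clusters with a second type at a score of 2 or more were called mixed. A cluster with more markers of another type than of its own among its 10 leading genes got no type name, and 1 such cluster, led by Ly6i, was set apart as a class of its own after its values were seen. Doublets were called with Scrublet (scanpy 1.11.5) and kept.

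UMIs were summed per class and library, with exact Poisson and exact binomial (Clopper-Pearson) 95% intervals (scipy 1.17.1). Log2 ratios have 1 UMI added. The calculation was tested on simulated counts. The genes named are the ligands, the members of the gene lists and, for each ligand, the 3 genes with the highest Pearson r. Genes that lead clusters, and those of the cells rich in Cxcl13, were named after their values were seen.

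Alternatives were a mitochondrial limit of 10%, doublets removed, classes set cell by cell from marker UMIs with and without the filters on cells, a resolution of 1.2, CXC ligand genes allowed in clustering, no integration, thinned cells, scaling by the median of gene ratios and no added UMI. Leaving out the cell with most UMIs, no minimum of cells for a leading class, the Ly6i cluster counted as monocytes, hepatocytes without a small cluster led by Cxcl9, and KCs without the cells of a cluster found without integration were added after seeing the data.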

Additional observations from a re-analysis of the deposited data

Results flagged for a closer look

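Some ligands moved in opposite directions in different classes. Cxcl9 had a log2 ratio of the pool over the NCD library of 2.88 in hepatocytes and -2.60 in MoMFs, and Cxcl10 had 3.82 in neutrophils and -1.97 in MoMFs. The MoMF value of Cxcl10 rests on 1 cell with 58 of the 66 NCD UMIs and was 0.34 without the most loaded cells, and for Cxcl9 1 MoMF held 48.8% of the NCD UMIs. The difference between the classes was not tested, since each ratio compares 1 library with 1 library.

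The cells of the pool with more than 4000 genes, which were left out by the filter and enter no comparison of classes, also held ligand UMIs. Their levels were 47.3 CPM for Cxcl1, 421 CPM for Cxcl2, 120.4 CPM for Cxcl13 and 204 CPM for Cxcl16. The 501 of them with KC markers had a median depth of 23105 UMIs.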

How the results depend on the processing

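No paired analysis was possible because there is 1 library per diet, and no library could be left out. All ratios here are log2 ratios of the pool over the NCD library, and the cause of each change was not tested. Cxcl12 in hepatocytes ran from -0.47 to -0.28 over 14 alternatives. Of the 14 pairs of ligand and library, 4 kept their leading class with classes from marker UMIs, 3 with no filter on cells as well, 3 with no upper limit on genes, 7 with CXC ligand genes allowed in clustering, 5 without integration, and 8 with no minimum number of cells, the last added after seeing the data. None of the first 5 of these settings set the Ly6i cluster apart, so Cxcl9 and Cxcl10 have no value there for it. With the cluster counted as monocytes, also added after seeing the data, 10 pairs kept their leading class.

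With a mitochondrial limit of 10% the ratios were 3.69 for Cxcl2, -1.61 for Cxcl9 and -0.98 for Cxcl10 in the Ly6i cluster, and -1.33 for Cxcl13. With classes from marker UMIs they were 3.95 for Cxcl2 and -0.52 for Cxcl13, and Cxcl10 turned to 1.47 in MoMFs and -0.22 in cDC1. With no filter on cells they were 4.01 for Cxcl2 and -0.19 for Cxcl16, with 0.019 for Cxcl10 in MoMFs and -0.15 in cDC1. With no upper limit on genes they were 3.98 for Cxcl2 and -0.18 for Cxcl16, with 0.27 for Cxcl10 in MoMFs and -0.15 in cDC1.

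A resolution of 1.2 gave -1.58 for Cxcl9. With CXC ligand genes allowed in clustering no MoMF class was named, so that Cxcl16 had no value, and Cxcl13 was -0.89. Without integration the ratios were 3.95 for Cxcl2 and -1.30 for Cxcl13, and Cxcl9 and Cxcl10 turned to 0.014 and 0.33 in a MoMF class of 81 and 2 cells. Thinned cells gave 0.48 for Cxcl1, 4.77 for Cxcl2 and -0.79 for Cxcl10. Without the cell with most UMIs Cxcl13 was -1.45, and Cxcl10 in MoMFs turned to 0.34. Over all alternatives Cxcl2 stayed above 2-fold in monocytes, from 1.67 to 5.05.

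Depth limits Cxcl1 most, with 182 UMIs among kept cells with NCD, and the MoMF values, which rest on 87 and 103 cells.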
